A study of Vitis vinifera with 8 samples.

Results

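Phenylalanine ammonia-lyase (PAL) genes were examined in grapevine leaves in which the transcription factor gene VviNAC33 had been overexpressed for 7 days. The 10 genes were chosen by a fixed list of VIT identifiers, each read by 1 probe, out of 34369 probes other than controls, and all 10 passed the filter on dim probes that left 26579 probes for testing. A run of 7 identifiers on chromosome 16, from VIT_16s0039g01100 to VIT_16s0039g01280, is called the tandem copies. The other 3, on chromosomes 6, 8 and 13, are called the single copies. All 10 probes were well above background on 8 of 8 arrays, so that every probe gave a signal in every leaf sample.

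PAL removes the amino group of phenylalanine and releases cinnamic acid, which is the entry step of the phenylpropanoid pathway. The cinnamic acid feeds the monolignols of lignin, the flavonoids and, in grapevine, the stilbenes such as resveratrol. In leaves PAL genes are known to respond to wounding, pathogens and ultraviolet light, and stilbene synthase genes of grapevine respond to much the same stimuli.

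The plants were in vitro grapevine plantlets (Vitis vinifera cv Sultana), 6 weeks old at infiltration by the labels, although the methods give a different age. OXNAC33 plants were vacuum infiltrated with Agrobacterium tumefaciens C58C1 carrying VviNAC33 behind the constitutive 35S promoter in pK7WG2, and Control plants with the same strain carrying pK7WG2 with a non-coding sequence. Both groups were therefore exposed to the bacterium, and no plants without infiltration were hybridised, so the response of the PAL genes to infiltration itself has no baseline here. Of 8 OXNAC33 and 7 Control plants, 4 in each group were hybridised to 1-colour grapevine arrays, 1 plant per array. By the methods the OXNAC33 plants were those with the most transgene by quantitative PCR, and the RNA came from a pool of apical leaves of each plant. All values below are the log2 ratio of a probe's signal to its array's 75th percentile, a scale on which 1 unit is a doubling, and levels of different probes are not compared with each other.

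VviNAC33 itself read 0.14, -0.75, -1.15 and -1.37 on Control arrays 1 to 4 and 1.15, 0.59, -0.13 and -1.14 on arrays 1 to 4 labelled OXNAC33. The groups overlapped, because the array labelled OXNAC33 4 lay below Control 1 and 2 and at the level of Control 3, and OXNAC33 3 lay below Control 1. The difference was 0.90 ± 0.52 (SE, n = 4 per group, limma, unadjusted p = 0.121, adjusted p = 0.666), and it was not established here whether the probe lies in the transferred coding sequence. Within replicates 1 to 4 VviNAC33 was higher in OXNAC33 by 1.003, 1.34, 1.02 and 0.24, and with the replicate number as a block its unadjusted p in limma was 0.0075 (adjusted p = 0.280). The titles number the arrays but do not pair the plants, so all results by replicate number rest on an assumed pairing. Arrays 1 and 2 of both groups were scanned on 1 date, arrays 3 on a second and arrays 4 on the third. The 75th percentile of the signal ranged from 1379 to 2768, and each array had between 73.8% and 84.1% of its probes well above background. The leaf markers ATPC1, LHCA5 and PSB27 were well above background on all 8 arrays, and so were SHR, listed as a root marker, and the pollen Ole e I protein gene.

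None of the 10 PAL genes differed between the groups beyond the spread between plants. Under limma 0 of 10 members passed an adjusted p of 0.05, beside 0 of the 26579 probes (0%), and their adjusted p ranged from 0.713 to 0.979. Without adjustment 0 of 10 again had a p under 0.05, beside 7.77% of all probes (5.53% with at least 1.5 fold), and the methods' t-test also gave 0. The values of the groups overlapped for all 10 members, whereas 4.12% of all probes did not overlap. Differences of a cell type's abundance and of its RNA content per cell cannot be told apart in these whole-leaf samples.

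Most tandem copies and the single copies had differences on opposite sides of 0 even so. The difference, OXNAC33 minus Control, was above 0 for 6 of 7 tandem copies and for 0 of 3 single copies, beside 54.7% of all probes. Its median was 0.38 over the tandem copies, -0.10 over the single copies and 0.04 over all probes. With slide as a random block the single copies had a median of 0.16 and the tandem copies one of 0.45, both above 0. Only Control 4 and OXNAC33 4 shared a slide between the groups. With a slide correlation of 0.658 that fit gave this pair more weight. These medians are descriptions, and the difference between the sets of copies was not tested.

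**Figure D1:**
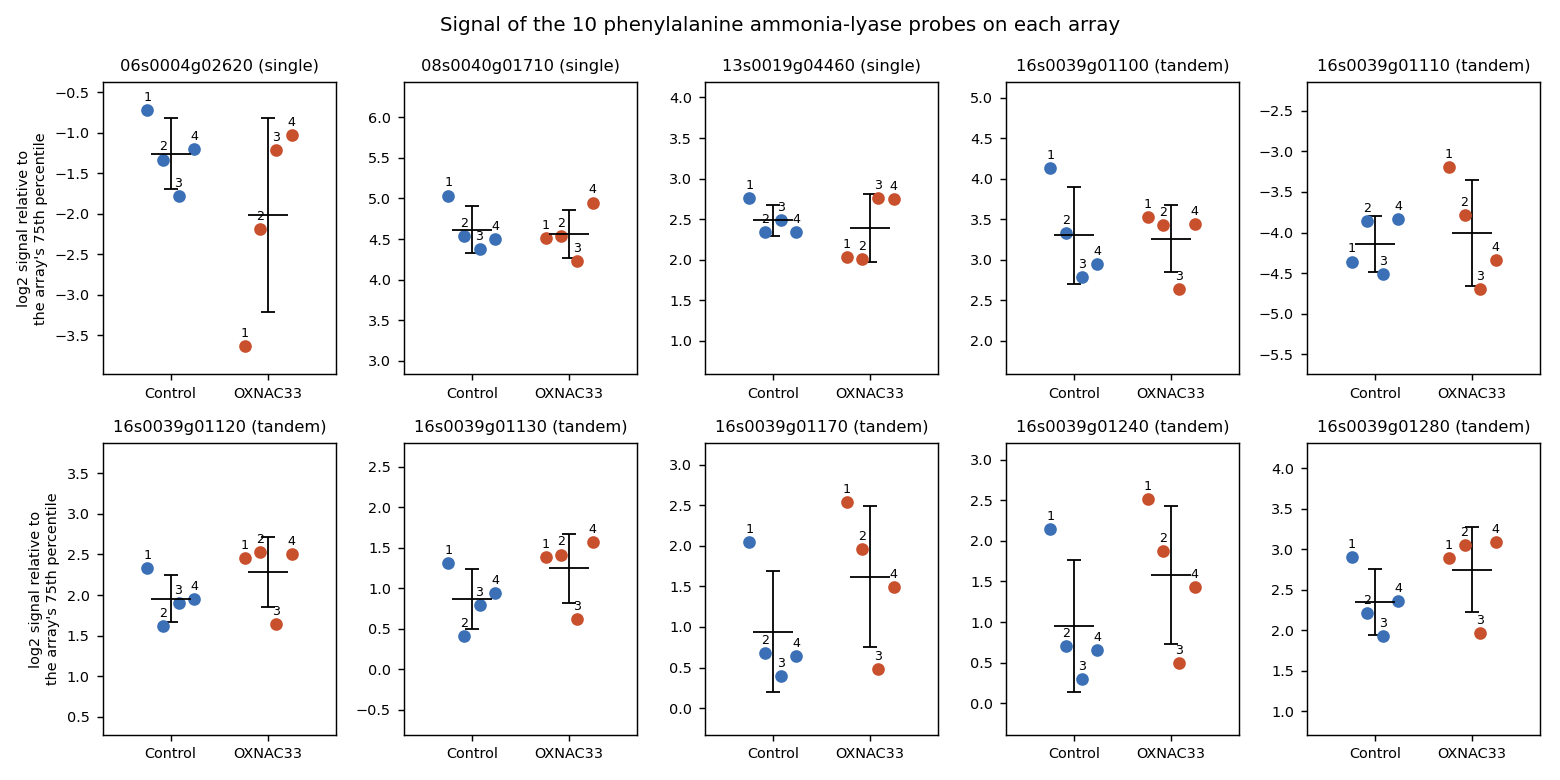
Each panel plots 1 PAL probe as log2 of its signal over the array's 75th percentile on the 4 Control (blue) and 4 OXNAC33 (red) arrays. Numbers are replicate numbers, the wide dash is the group mean, bars are 1 SD, and all panels span the same number of log2 units. The groups overlap in every panel, and OXNAC33 3 is the lowest OXNAC33 array in all 7 tandem panels.

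Among the tandem copies VIT_16s0039g01170 and VIT_16s0039g01240 had the largest differences. VIT_16s0039g01170 read 2.05, 0.68, 0.40 and 0.64 on Control arrays 1 to 4 and 2.54, 1.97, 0.48 and 1.49 on OXNAC33 arrays 1 to 4. VIT_16s0039g01240 read 2.14, 0.70, 0.30 and 0.66 in Control and 2.52, 1.87, 0.50 and 1.43 in OXNAC33. In both genes Control 1 stood above OXNAC33 2, 3 and 4, and OXNAC33 3 fell among Control 2, 3 and 4.

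The difference of VIT_16s0039g01170 was 0.68 ± 0.50 (SE, n = 4 per group), or 1.60-fold, with a 95% interval from 0.717 to 3.56, and its unadjusted p in limma was 0.216 (adjusted p = 0.716). That of VIT_16s0039g01240 was 0.63 ± 0.51 (SE, n = 4 per group), or 1.55-fold with an interval from 0.683 to 3.50, with an unadjusted p of 0.255 (adjusted p = 0.736). Without OXNAC33 1 the differences were 0.37 and 0.32, and without Control 1 they were 1.05 and 1.03. Within each replicate number the order was uniform. VIT_16s0039g01170 was higher in OXNAC33 by 0.49, 1.28, 0.08 and 0.85 in replicates 1 to 4, and VIT_16s0039g01240 by 0.37, 1.17, 0.20 and 0.77. They were the 2 members higher in 4 of 4 pairs, which 11.9% of 26466 probes with complete values also were.

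The fit with the replicate number as a block changed these calls at the unadjusted level. Its p was 0.0294 for VIT_16s0039g01170 and 0.0260 for VIT_16s0039g01240, so 2 of 10 members passed an unadjusted p of 0.05, beside 12.4% of all probes. After adjustment neither passed, with limma adjusted p of 0.369 and 0.360, while 2 probes in all (0.00752%) passed and no member was among them. With scan date as the block in place of the replicate number, 0 of 10 members passed without adjustment, beside 15.1% of all probes, and limma gave unadjusted p of 0.0937 and 0.117 for these genes. Control 1 and OXNAC33 1 were each the highest array of their group, and the block reduced the residual SD of VIT_16s0039g01170 from 0.81 to 0.36 and that of VIT_16s0039g01240 from 0.83 to 0.31.

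**Figure D2:**
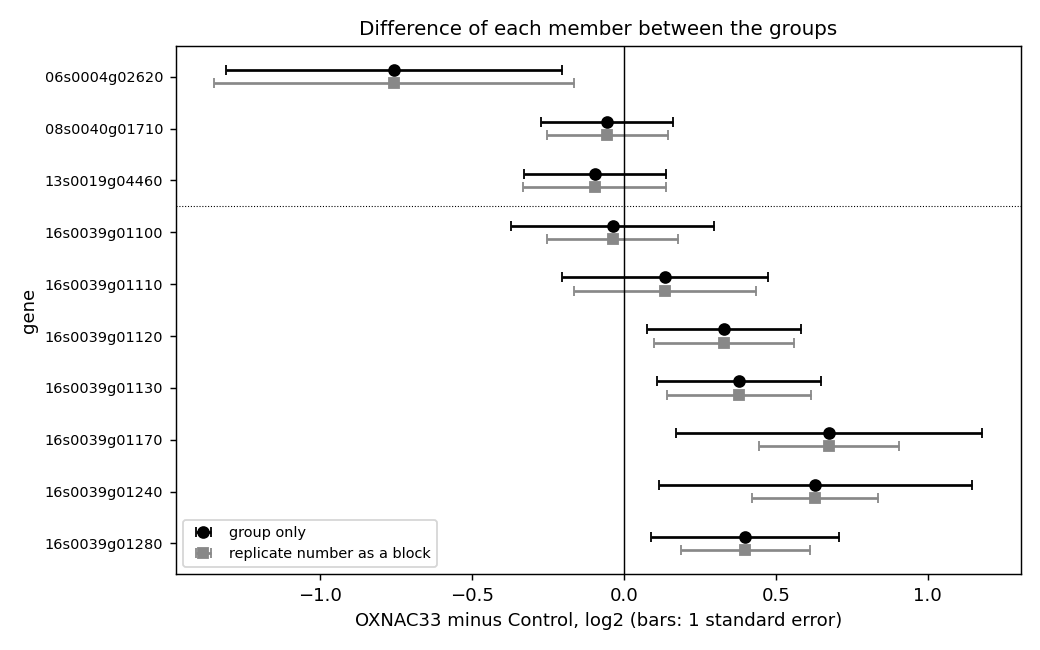
The horizontal axis is the log2 difference between OXNAC33 and Control for each PAL gene, with bars of 1 standard error from limma, and the dotted line parts the single copies above from the tandem copies below. Black circles are the fit with group alone and grey squares the fit with the replicate number as a block, whose standard errors were smaller for VIT_16s0039g01170 (0.23) and VIT_16s0039g01240 (0.21) and similar for the single copies.

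VIT_16s0039g01120, VIT_16s0039g01130 and VIT_16s0039g01280 formed a second set with smaller differences. VIT_16s0039g01120 read 2.33, 1.62, 1.91 and 1.95 in Control and 2.46, 2.53, 1.64 and 2.51 in OXNAC33. VIT_16s0039g01130 read 1.31, 0.42, 0.80 and 0.95 in Control and 1.38, 1.42, 0.62 and 1.57 in OXNAC33. For both genes 3 OXNAC33 arrays lay above every Control array, and OXNAC33 3 lay below Control 3 and 4.

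VIT_16s0039g01280 read 2.90, 2.21, 1.93 and 2.36 in Control and 2.89, 3.05, 1.97 and 3.09 in OXNAC33. Here Control 1 and OXNAC33 1 were nearly equal and OXNAC33 2 and 4 were the highest arrays. The 3 differences were 0.33 ± 0.25, 0.38 ± 0.27 and 0.40 ± 0.31 (SE, n = 4 per group) in the order of the identifiers, and limma gave unadjusted p of 0.228, 0.198 and 0.231. Their 95% intervals reached from 0.841 to 1.88-fold, from 0.846 to 2.00-fold and from 0.808 to 2.16-fold. Each of the 3 was higher in OXNAC33 in 3 of 4 replicate pairs.

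The differences of the tandem copies moved with single arrays, and calls at the unadjusted level appeared on leaving out OXNAC33 3. Without OXNAC33 3, 4 of 10 members passed an unadjusted p of 0.05, beside 10.3% of all probes, namely VIT_16s0039g01120 (0.54, unadjusted p = 0.0286 in limma), VIT_16s0039g01130 (0.59, unadjusted p = 0.0383), VIT_16s0039g01170 (1.06, unadjusted p = 0.0470) and VIT_16s0039g01280 (0.66, unadjusted p = 0.0306). Their adjusted p in limma stayed between 0.473 and 0.482. Without Control 2 the differences of VIT_16s0039g01120 and VIT_16s0039g01130 were 0.22 and 0.23, and without Control 3 that of VIT_16s0039g01280 was 0.26. Without OXNAC33 4, the array whose VviNAC33 level was as low as in Control, 0 members passed and the median of the tandem copies was 0.27. Weights for each array, which favoured OXNAC33 2, put 4 of 10 members under an unadjusted p of 0.05, beside 25.6% of all probes, and none of them passed after adjustment in limma.

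VIT_16s0039g01100 and VIT_16s0039g01110, the first identifiers of the run, had the differences nearest 0 among the tandem copies. Over the 8 arrays VIT_16s0039g01100 still followed VIT_16s0039g01170 (Spearman's rho = 0.93). VIT_16s0039g01100 read 4.14, 3.34, 2.79 and 2.94 in Control and 3.53, 3.43, 2.65 and 3.45 in OXNAC33, with Control 1 the highest and OXNAC33 3 the lowest of the 8 arrays. Its difference was -0.04 ± 0.33 (SE, n = 4 per group, limma, unadjusted p = 0.913), and the interval from 0.573 to 1.66-fold covers the estimates of the 5 other tandem copies named above. It was the tandem copy whose difference lay below 0, and it turned to 0.24 without Control 1.

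VIT_16s0039g01110 read -4.36, -3.85, -4.52 and -3.83 in Control and -3.20, -3.79, -4.70 and -4.34 in OXNAC33. OXNAC33 1 was the highest array for this probe, and Control 1, high for the other tandem copies, was the third lowest. The difference was 0.14 ± 0.34 (SE, n = 4 per group, limma, unadjusted p = 0.701), and it turned to -0.13 without OXNAC33 1.

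The single copies behaved differently from one another. VIT_06s0004g02620 had the widest spread of the family, with -0.72, -1.33, -1.78 and -1.21 in Control and -3.64, -2.19, -1.21 and -1.03 in OXNAC33. OXNAC33 1 and 2 were the lowest arrays, and OXNAC33 3 and 4 lay within the Control range. The difference was -0.76 ± 0.55 (SE, n = 4 per group, limma, unadjusted p = 0.208, adjusted p = 0.716), which is 0.592-fold with an interval from 0.246 to 1.43, and it was -0.22 without OXNAC33 1.

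VIT_13s0019g04460 read 2.76, 2.34, 2.49 and 2.34 in Control and 2.04, 2.01, 2.76 and 2.74 in OXNAC33. Again OXNAC33 1 and 2 were the lowest of the 8 arrays, and OXNAC33 3 and 4 stood at the level of Control 1. Its difference was -0.10 ± 0.23 (SE, n = 4 per group, limma, unadjusted p = 0.693), with an interval from 0.645 to 1.36-fold.

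VIT_08s0040g01710 read 5.04, 4.54, 4.37 and 4.50 in Control and 4.51, 4.54, 4.23 and 4.95 in OXNAC33. Control 1 and OXNAC33 4 were the highest arrays and OXNAC33 3 the lowest. The difference was -0.06 ± 0.22 (SE, n = 4 per group, limma, unadjusted p = 0.804), and the interval from 0.682 to 1.36-fold does not reach a change of 1.5-fold in either direction.

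The low values of VIT_06s0004g02620 and VIT_13s0019g04460 on OXNAC33 1 and 2 stood on arrays where 2 of the 3 leaf markers, LHCA5 and PSB27, were lowest as well. LHCA5, a light-harvesting protein gene of photosystem I, read 1.36, 1.87, 2.39 and 2.59 in Control and 0.20, 0.93, 2.05 and 2.25 in OXNAC33. PSB27, a photosystem II assembly factor, ranged from 0.99 to 1.36 in Control and from 0.33 to 1.38 in OXNAC33, and was lowest on OXNAC33 1 and 2. ATPC1, of the chloroplast ATP synthase, took another order, with -3.92, -4.36, -4.65 and -5.24 in Control and -3.52, -4.07, -4.75 and -4.44 in OXNAC33, so that OXNAC33 1 was its highest array. Its difference was 0.35 ± 0.35 (SE, n = 4 per group, limma, unadjusted p = 0.344). The summed linear signal of the 3 leaf markers was 2.50 and 3.43 times the 75th percentile on OXNAC33 1 and 2, against a range from 4.62 to 8.31 in Control, a sum to which ATPC1 adds little. The paper reports photosynthesis among the functions of the genes lowered in this transient experiment. From stable lines and a promoter assay, it also reports ATPC1 as a target that VviNAC33 represses. These markers therefore need not measure leaf content alone. The part of leaf content in the values of the 2 single copies was not tested.

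The spread between plants of 1 group differed widely among the members. The SD within groups was 0.90 for VIT_06s0004g02620, larger than that of 89.0% of all probes tested. It was 0.81 for VIT_16s0039g01170 and 0.83 for VIT_16s0039g01240, larger than 86.1% and 86.8% of probes. The steadiest members were VIT_08s0040g01710, at 0.29, and VIT_13s0019g04460, at 0.33, both below the median of 0.39 over all probes.

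Most tandem copies were high or low on the same arrays, in both groups. Their mean, taken as the deviation from the Control mean of each gene, was 0.61, -0.16, -0.37 and -0.08 on Control arrays 1 to 4 and 0.84, 0.61, -0.44 and 0.42 on OXNAC33 arrays 1 to 4. Thus 4 arrays, Control 1 and OXNAC33 1, 2 and 4, lay between 0.42 and 0.84, and the other 4 between -0.44 and -0.08. On OXNAC33 1 and 2, 7 of 7 tandem copies stood above their Control mean, on OXNAC33 4 and Control 1, 6 of 7 did, and on OXNAC33 3 and Control 3, 0 of 7.

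The mean deviation of the single copies took another order, with 0.41, -0.09, -0.25 and -0.07 in Control and -0.98, -0.49, -0.02 and 0.28 in OXNAC33. This did not hold for each single copy. VIT_08s0040g01710 followed most tandem copies more closely, with Pearson's r from -0.02 (VIT_16s0039g01110) to 0.85 (VIT_16s0039g01100). Its r was 0.36 with VIT_06s0004g02620 and 0.32 with VIT_13s0019g04460. On OXNAC33 1 and 2 the single copies thus lay below their Control mean, 0 of 3 above it, while every tandem copy lay above. On Control 1 and OXNAC33 4, by contrast, 3 of 3 single copies and 6 of 7 tandem copies were above together.

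The gap between the 2 kinds of copy, tandem minus single, was 0.20, -0.06, -0.12 and -0.01 in Control and 1.82, 1.099, -0.42 and 0.15 in OXNAC33. The Control plants therefore lay between -0.12 and 0.20, and the OXNAC33 plants between -0.42 and 1.82. By scan date the difference of this gap between the groups was 1.39 on the first date, -0.30 on the second and 0.16 on the third. The opposite course of the 2 means came from OXNAC33 1 and 2, which shared a scan date and a slide that held no Control array. On OXNAC33 1 VIT_06s0004g02620 deviated by -2.38, VIT_13s0019g04460 by -0.45 and VIT_08s0040g01710 by -0.10, so the first gene set much of the gap. On OXNAC33 2 these deviations were -0.93, -0.47 and -0.08. The median deviation of the single copies was -0.45 on OXNAC33 1 and -0.47 on OXNAC33 2.

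**Figure D3:**
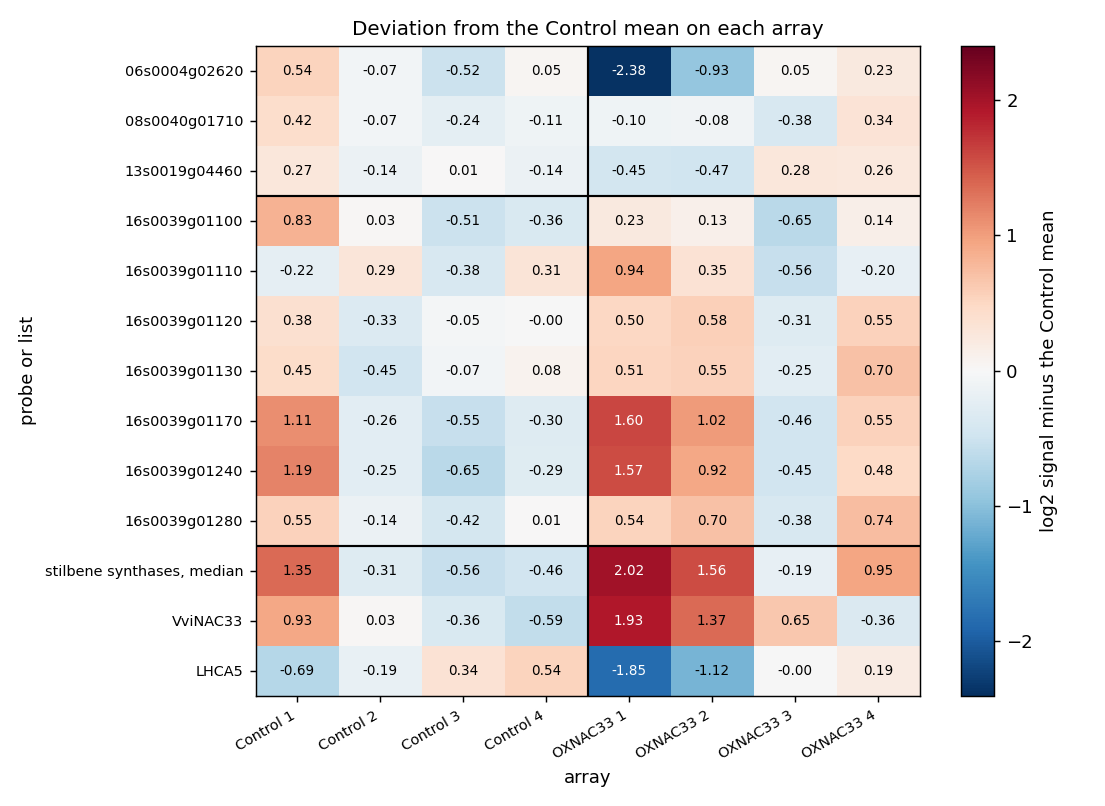
Rows are the 3 single copies, the 7 tandem copies, the median of 23 stilbene synthase genes, VviNAC33 and the leaf marker LHCA5, and columns are the 8 arrays. Colour and printed value give the log2 signal minus the Control mean of that row, red for higher and blue for lower. Control 1 and OXNAC33 1, 2 and 4 are red in most tandem rows, and VIT_06s0004g02620 and LHCA5 are blue on OXNAC33 1 and 2.

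Some tandem probes were nearly interchangeable. The deviations of VIT_16s0039g01170 and VIT_16s0039g01240 differed by 0.05 on average over the 8 arrays and by 0.11 at most. Those of VIT_16s0039g01120 and VIT_16s0039g01130 differed by 0.07 on average and by 0.15 at most. Between VIT_16s0039g01110 and other tandem copies the mean gap reached 0.58. Copies of a tandem run can be alike in sequence, and whether each probe reads 1 copy or several was not tested, so 2 such probes may not be separate measurements.

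The neighbours of the tandem copies were checked with the other identifiers numbered between VIT_16s0039g01100 and VIT_16s0039g01280. Of 11 such identifiers 9 were tested, and their differences ranged from -0.53 to 0.35 with a median of -0.14. Of these 4 lay above 0, and 0 of 9 passed an unadjusted p of 0.05 in limma. The differences of the PAL copies, from -0.04 to 0.68, overlapped this range, and the 2 sets were not tested against each other.

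Probes most like the family in their course over the 8 arrays were found by Pearson's r among 26456 probes. Likeness to the tandem mean rests largely on the gap between its 4 higher and 4 lower arrays. For the tandem mean the nearest were VIT_05s0077g01690, annotated as a pathogenesis protein of class 10 (r = 0.98, Spearman's rho = 0.90, r = 0.97 without the 2 farthest arrays), VIT_16s0100g00900 (r = 0.98, rho = 0.98, r = 0.98 without them) and VIT_02s0012g01570, a cinnamoyl-CoA reductase (r = 0.98, rho = 0.98, r = 0.98 without them). The identifier VIT_16s0100g00900 falls between those of 2 listed stilbene synthases but has no annotation in the sources used here. Cinnamoyl-CoA reductase takes hydroxycinnamoyl-CoA esters into the monolignol branch. VIT_02s0012g01570 read 0.72, -0.21, -0.35 and -0.15 in Control and 1.49, 0.94, -0.42 and 0.69 in OXNAC33, the same higher and lower arrays as the tandem copies.

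For VIT_06s0004g02620 the nearest probes were VIT_00s0357g00070 (r = 0.97), VIT_01s0127g00260 (r = 0.95) and VIT_01s0011g03470 (r = 0.95), where r without the 2 farthest arrays was 0.67, 0.84 and 0.75. For VIT_08s0040g01710 they were VIT_14s0066g01790, described as GASA-like (r = 0.93), VIT_10s0003g02390, described as a senescence-related oxidoreductase (r = 0.90), and VIT_13s0139g00460 (r = 0.89). Without the 2 farthest arrays r was 0.79, 0.95 and 0.77 in that order. For VIT_13s0019g04460 they were VIT_01s0010g01210 (r = 0.95), VIT_08s0040g00760 (r = 0.94) and VIT_06s0004g05040, annotated as a prenylcysteine methyltransferase (r = 0.92). Here r without the 2 farthest arrays was 0.86, 0.79 and 0.84. No probe was among the nearest 3 of more than 1 of these targets.

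The branches around PAL were followed through 62 genes in 5 lists. Their names came from annotations of genes co-expressed with VviNAC33, changed in stable lines or near regions it binds. Under limma 0 genes of any list passed an adjusted p of 0.05. The stilbene synthases, which condense coumaroyl-CoA with malonyl-CoA into resveratrol, had the highest median. Of 23 tested, 22 lay above 0, beside 54.7% of all probes, and their median was 1.001 beside 0.04 over all probes. At an unadjusted p of 0.05 in limma 2 passed, both higher, against 3.95% of all probes called higher. The whole list had been picked for co-expression with VviNAC33 across organs, in samples other than these.

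VIT_16s0100g00910 (VvSTS21) read 1.29, -0.44, -0.15 and -0.27 in Control and 2.35, 2.02, 0.20 and 2.45 in OXNAC33, a difference of 1.65 ± 0.57 (SE, n = 4 per group, limma, unadjusted p = 0.020, adjusted p = 0.636). VIT_16s0100g01150 (VvSTS43) read -0.91, -2.41, -2.88 and -3.21 in Control and -0.11, -0.37, -2.55 and -0.25 in OXNAC33, a difference of 1.54 ± 0.67 (SE, n = 4 per group, limma, unadjusted p = 0.049, adjusted p = 0.636). As in the tandem PAL copies, Control 1 was high and OXNAC33 3 low. With the replicate block 19 of 23 stilbene synthases passed an unadjusted p of 0.05, beside 5.81% of all probes called higher. None passed after adjustment. In 4 of 4 pairs 20 of 23 were higher, beside 11.9% of 26466 probes with complete values.

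Set side by side with the tandem PAL copies, the stilbene synthases took the same higher and lower arrays. Their median deviation was 1.35, -0.31, -0.56 and -0.46 in Control and 2.02, 1.56, -0.19 and 0.95 in OXNAC33. Control 1 and OXNAC33 1, 2 and 4 were the higher arrays again. Stilbene synthases too are a large family of near-identical copies, so that their number does not stand for as many separate measurements.

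The other lists had medians nearer 0 or below it. In the monolignol branch 10 of 15 genes were tested, with a median of 0.21. Of these 1 passed an unadjusted p of 0.05 as higher, VIT_17s0000g03940, a ferulate 5-hydroxylase of the syringyl route (1.72 ± 0.62, limma, unadjusted p = 0.022), and 1 as lower, VIT_11s0016g02600, a caffeoyl-CoA O-methyltransferase (-0.57 ± 0.24, unadjusted p = 0.041), beside 3.82% of all probes called lower. With the replicate block 3 monolignol genes passed as higher and 1 as lower, without adjustment in limma. In that fit 5.81% of all probes were called higher and 12.4% were called in either direction. The filter on dim probes left out VIT_01s0011g03480, a cinnamoyl-CoA reductase, which is named here after its values were seen. It was not well above background on any Control array and was so on 3 of 4 OXNAC33 arrays, with -7.89, -8.86, -8.95 and -8.65 in Control and -2.16, -5.01, -7.25 and -4.69 in OXNAC33. Its groups did not overlap, as was also so for 4.12% of the tested probes, and it was not tested. No fold is given, because the signal was dim on every Control array and not well above background on all OXNAC33 arrays.

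In the flavonoid branch 10 of 11 were tested, with a median of -0.47 and 7 of 10 below 0. The flavanone 3-hydroxylase gene VIT_04s0023g03370 was lower at the unadjusted level (-0.98 ± 0.36, limma, unadjusted p = 0.025, or 0.051 with the replicate block), and the flavonol synthase gene VIT_10s0003g02430 had a difference of 0.73 ± 0.33 (unadjusted p = 0.054).

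Upstream of PAL, the 8 genes that supply phenylalanine had a median of 0.04. VIT_10s0116g01670, a prephenate dehydratase, was lower at the unadjusted level (-0.91 ± 0.36, limma, unadjusted p = 0.036, or 0.077 with the replicate block), and the shikimate kinase VIT_16s0039g02500 had a difference of 0.86 ± 0.60 (unadjusted p = 0.186, or 0.0093 with the replicate block). Further down from PAL, the 3 tested genes for 4-coumarate-CoA ligase, which activates coumarate, had a median of -0.12, and 0 of 3 passed an unadjusted p of 0.05. VIT_06s0061g00450 had a difference of 0.46 ± 0.24 (limma, unadjusted p = 0.092) and VIT_17s0000g01790 one of -0.29 ± 0.18 (unadjusted p = 0.137).

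**Figure D4:**
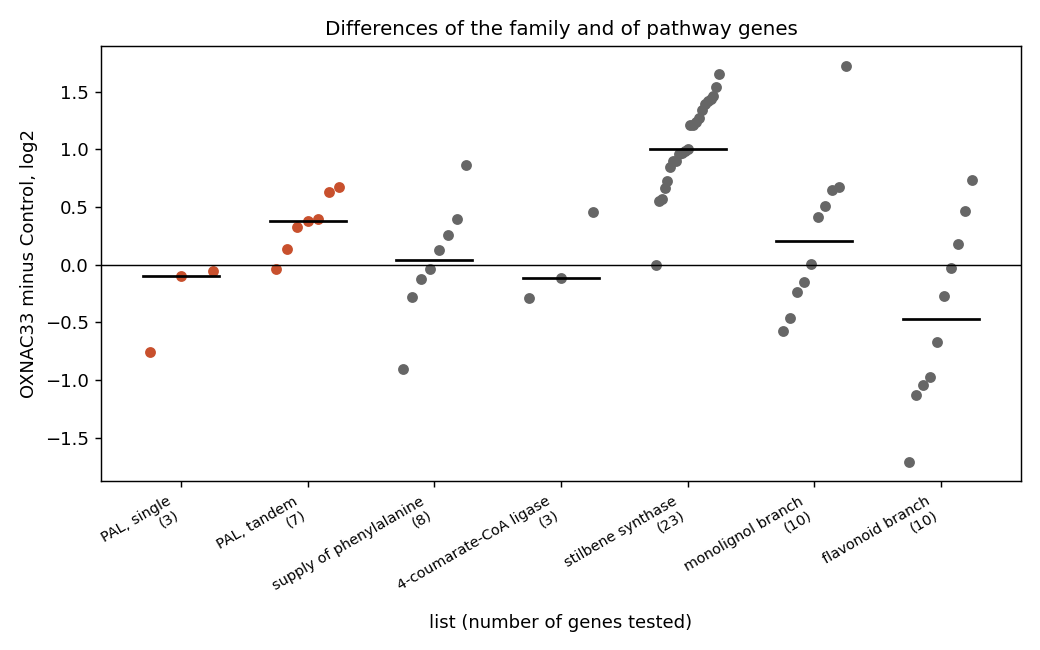
The vertical axis is the log2 difference between OXNAC33 and Control, with 1 point per tested gene for the PAL copies (red) and for 5 lists of pathway genes (grey), and the bar is the median of the list. The tandem PAL copies (median 0.38) lie above 0 except 1, the stilbene synthases reach 1.65, and 7 of 10 flavonoid genes lie below 0.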

How the data were processed

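Leaf RNA of 8 plants was read on 8 arrays, 4 per group, and the titles in the labels gave each array its group and number. Per the file headers, Agilent Feature Extraction 10.5.1.1 (protocol GE1_105_Dec08) gave the deposited values, a background-subtracted processed intensity per spot on a linear scale, with the median intensity of the spot and of its local background. The authors also deposited a table of linear intensity for 24631 probes, which is the processed intensity multiplied by a constant for each array, and it served as an alternative. Depth has no counterpart on arrays, and their number limits the precision.

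The 140 spots marked outlying were left out, and 0 were saturated. Each processed intensity was divided by its array's 75th percentile and put on a log2 scale. Probes well above background on at least 4 of 8 arrays were tested, two-sided, in limma 3.58.1 (R 4.3.3) by a model of group alone, and Benjamini-Hochberg adjustment over all 26579 probes. The script was tested on simulated data. Python 3.11.15 and matplotlib 3.10.9 were used for summaries and plots.

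The members and the pathway lists were chosen with earlier results of these data known. The genes named are the 10 members, VviNAC33, the 3 probes most like the tandem mean and each single copy, the 2 genes of lowest p in each pathway list, and the markers. VIT_01s0011g03480 was added outside this rule after its values were seen. The pathway lists use identifiers and annotations from the study's tables, and no value of these tables was used. As 0 array identifiers matched the RefSeq gene table, no coordinates, promoters or protein sequences are given.

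Deviations of same-numbered arrays from their group means correlated at 0.490, 0.253, 0.496 and 0.102 for replicates 1 to 4 over all tested probes. The replicate block and the replicate pairs assume that same-numbered arrays belong together, which the titles do not say. Some arrays of different number correlated more closely, such as Control 4 with OXNAC33 3 at 0.499 and Control 2 with OXNAC33 1 at 0.476. Scan date and slide came from the file headers. Alternatives were normexp background correction with an offset of 50, quantile normalization, other filters, scan date, slide or replicate number as a block, array weights, the authors' table, the methods' t-test, outlying spots kept, and leaving out each array. The normexp alternative used the median signal, since the mean signal is not in the columns used here. Differences within scan dates and within replicate numbers were added after the data were seen.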

Additional observations from a re-analysis of the deposited data

Results flagged for a closer look

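In 7 of 76 groups of 4 arrays examined, 1 array stood far from the other 3. A rate of 1 in 20 would give 3.8 groups if the groups were independent. They were not, because the genes share the same arrays and some probes were nearly interchangeable. Some of the genes were also chosen by their values in these data. Whether 7 is more than chance gives can therefore not be judged from this count. The share of the group's whole range taken up by the gap to the nearest array was 0.881 for VIT_16s0039g01100 and 0.920 for VIT_16s0039g01120, both for OXNAC33 3, which lay at 2.65 below 3.43 to 3.53 and at 1.64 below 2.46 to 2.53. OXNAC33 3 also stood apart for the stilbene synthase VIT_16s0100g01150, with a share of 0.892, at -2.55 against -0.37 to -0.11. Control 1 stood apart for the stilbene synthase VIT_16s0100g00910, with a share of 0.831, at 1.29 against -0.44 to -0.15.

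Control 1 also lay above the other Control arrays in 3 of the probes most like the single copies. The share was 0.878 for VIT_01s0127g00260, at 2.49 against 2.21 to 2.24, 0.886 for VIT_01s0010g01210, at -0.51 against -0.99 to -0.93, and 0.901 for VIT_08s0040g00760, at 1.70 against 1.24 to 1.29.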

How the results depend on the processing

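With 4 plants per group and a wide spread between them, limma left intervals for VIT_16s0039g01170 and VIT_16s0039g01240 that include both no change and a change of over 1.5-fold. The number of members called after adjustment was 0 under all 11 alternatives and on leaving out each of the 8 arrays, and the lowest adjusted p of any member in any of them was 0.154. Without adjustment, 0 members under 0.05 became 2 with the replicate block and 4 with array weights, which gave OXNAC33 2 a weight of 5.75 and called 25.6% of all probes, and it ranged from 0 to 4 on leaving out an array. The replicate block changed no other call of a member. The median of the single copies was -0.39 with array weights and 0.16 with slide as a random block, and ranged from -0.22 to -0.005 on leaving out an array, while that of the tandem copies ranged from 0.23 to 0.59.

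Differences near 0 changed sign. VIT_16s0039g01110 was -0.033 under normexp and -0.18 with slide as a random block, which also gave 0.16 for VIT_08s0040g01710, 0.16 for VIT_13s0019g04460 and 0.20 for VIT_16s0039g01100. With array weights VIT_16s0039g01100 was 0.067. On leaving out an array VIT_08s0040g01710 ranged from -0.19 to 0.086 (highest without Control 1), VIT_16s0039g01100 from -0.21 to 0.24 (highest without Control 1), VIT_13s0019g04460 from -0.22 to 0.031 (highest without OXNAC33 2), and VIT_16s0039g01110 from -0.13 (without OXNAC33 1) to 0.37. The cause was not tested. VIT_06s0004g02620 stayed below 0, and the 5 tandem copies from VIT_16s0039g01120 to VIT_16s0039g01280 stayed above 0, in all of these settings.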
